A study of Rattus norvegicus with 22 samples.

Results

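Round spermatids were compared with pachytene spermatocytes of male rats that had received cyclophosphamide, an alkylating anticancer drug whose metabolites form adducts and crosslinks in DNA. The comparison took 11 of the 22 arrays of the series, 6 of round spermatids and 5 of pachytene spermatocytes, chosen by their labelled treatment and cell type and by no measured value. Both groups had been given the drug by gavage at 6 mg/kg on 6 days per week for 4 weeks, so the treatment itself does not differ between them. The same cell type difference in rats gavaged with saline (6 round spermatid and 5 pachytene arrays) was used beside it. Germ cells had been separated by sedimentation at unit gravity in the STA-PUT chamber, which sorts testicular cells by size, and the purity of the fractions is not given in the sources used here. Nothing in the labels states the strain or age, or which arrays of the 2 cell types came from the same animal. The rat numbers 15 and 16 occur in both cell types, and number 16 labels 2 pachytene arrays, 2011 and 2012. If some arrays share an animal or a preparation, the p-values measure less than the spread between animals.

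Pachytene spermatocytes are the large cells of meiotic prophase in which homologous chromosomes are synapsed, crossovers are made and the sex chromosomes are condensed into a silenced body. Round spermatids are the small haploid cells that follow the meiotic divisions; they transcribe the genes for the acrosome and the tail, and store messenger RNA for the protamines that will later replace histones. A change of RNA content between these stages is a known part of spermatogenesis. In bulk RNA of a sedimentation fraction, fewer cells of a type and less RNA per cell cannot be told apart.

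Levels are given as the log2 of the spot intensity minus the 75th percentile of the array, so a level of 0 is that percentile, and differences are round spermatids minus pachytene spermatocytes with their standard error (SE) from limma. A gene passed at a Benjamini-Hochberg adjusted p of 0.05 over all 19352 tested genes and unnamed transcripts, and "higher" is used below for what passed. The cell types differed in most of what was measured. Of the 19352, 80.8% passed, 39.7% with the higher level in round spermatids and 41.0% in pachytene spermatocytes. Over 2-fold differences made up 27.1% and 24.3%, and in 67.1% the levels of the groups did not overlap. These shares are the background against which every count below has to be read. The first principal component held 87.8% of the variance and separated the cell types. Arrays of one cell type correlated at 0.985 to 0.992 and arrays of different cell types at 0.836 to 0.881. The median SE was 0.148.

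The 4 genes used to check the labels moved with the cell type on every array. H1f6, the testis-specific linker histone of spermatocytes, stood at 3.85, 4.2, 4.27, 4.36 and 4.60 on the pachytene arrays and between -2.78 and -1.45 (median -2.06) on the round spermatid arrays. The groups lay far apart, and the difference of -6.40 ± 0.22 (SE, adjusted p = 9.99e-11), or 84.4-fold, was the largest towards pachytene spermatocytes among genes measured well above background on all 11 arrays. Piwil1, the PIWI protein that loads pachytene piRNAs, lay at 0.57, 0.87, 0.90, 0.93 and 1.22 against -3.87 to -2.53 (median -2.91), a 15.5-fold difference towards pachytene spermatocytes (-3.95 ± 0.21, adjusted p = 1.83e-09). Tssk6, a kinase of the spermatid needed for sperm-egg fusion, lay at -0.99, -0.95, -0.54, -0.45 and 0.19 against 2.56 to 3.12 (median 2.95), 10.9-fold higher in round spermatids (3.45 ± 0.19, adjusted p = 2.5e-09). Prm2, a protamine, lay at 2.03, 2.04, 2.49, 2.58 and 3.45 against 5.39 to 6.14 (median 5.62), 8.81-fold higher in round spermatids (3.14 ± 0.24, adjusted p = 3.67e-08). None of these ranges overlapped. Prm2 was thus well above background on the pachytene arrays too, where the array of rat 15 had the highest level of both Tssk6 and Prm2.

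**Figure D1:**
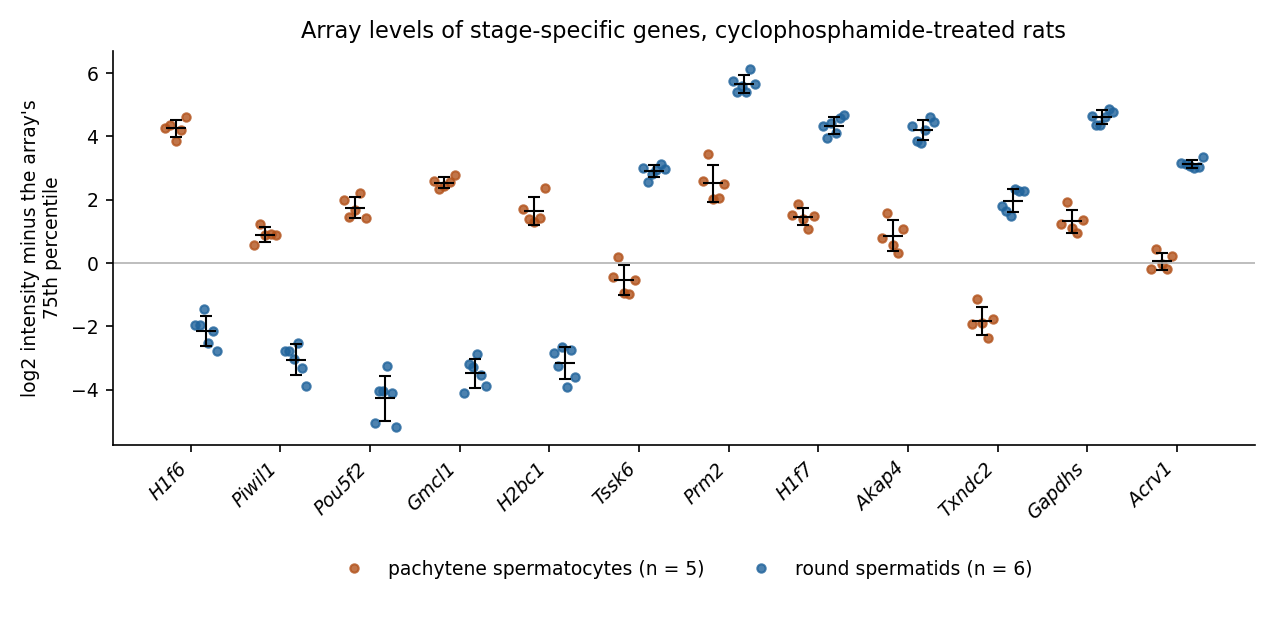
Levels of 12 genes on each array (points; y axis, log2 intensity minus the array's 75th percentile), with the mean and SD of 5 pachytene and 6 round spermatid arrays in black. H1f6, Piwil1, Pou5f2, Gmcl1 and H2bc1 are higher on every pachytene array and the other 7 genes on every round spermatid array, with no overlap.

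The wider marker lists followed the labels in most members. Of 17 round spermatid markers tested, 16 were higher in round spermatids and none in pachytene spermatocytes (median 2.92). Of 15 late spermatid markers, 13 were higher in round spermatids (median 1.91). Of 20 pachytene markers, 14 were higher in pachytene spermatocytes and 4 in round spermatids (median -1.74). The exceptions among the pachytene markers were Pgk2 (1.54 ± 0.11), the testis phosphoglycerate kinase, Ccna1 (1.38 ± 0.14), the meiotic cyclin A1, Mybl1 (0.84 ± 0.15), the transcription factor of pachytene piRNA loci, and Adam3a (0.48 ± 0.14).

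Markers of other testicular cells differed between the fractions as well, in opposite directions by cell type. Of 18 Sertoli cell markers, 14 were higher in pachytene arrays and 2 in round spermatid arrays. Their summed linear level, relative to the 75th percentile, was 27.5 to 48.2 on pachytene arrays and 4.32 to 7.45 on round spermatid arrays, with Clu at -3.47 ± 0.22, Gja1 at -3.57 ± 0.22 and Fshr at -3.14 ± 0.22. Of 8 Leydig cell markers tested, 8 were higher in pachytene arrays (sum over the 11 on the array 13.9 to 17.9 against 6.77 to 10.1), while the defining markers Lhcgr and Hsd3b2 were well above background on no array. Macrophage markers went the other way. Of 12 tested, 12 were higher in round spermatid arrays, and their sum was 9.46 to 18.8 against 56.1 to 92.3. Cd74, the invariant chain of antigen-presenting cells, lay at -5.56, -5.22, -4.21, -3.40 and -2.92 on pachytene arrays and between -1.0 and 0.57 on round spermatid arrays. Of 8 peritubular myoid markers 7 were higher in round spermatid arrays (sum 3.49 to 5.70 against 5.83 to 11.3), with Acta2, smooth muscle actin, at 1.87 ± 0.18. The part of these cells in the differences below was not tested.

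Wt1 and Kitlg, the Sertoli markers higher in round spermatids, were split between probes. The probe that stood for Wt1 gave 1.20 ± 0.25 and another of its probes -3.02 ± 0.23. For Kitlg the values were 0.67 ± 0.20 and -1.76 ± 0.22. The mean of all probes gave 0.13 for Wt1, which did not pass, and -0.57 for Kitlg. Spermatogonia markers were mixed: 6 of 10 were higher in round spermatids, led by Gfra1 (3.28 ± 0.20), the GDNF receptor, and 1, Id4, was higher in pachytene spermatocytes (-3.12 ± 0.26). Gfra1 lay at -2.21 to -0.94 against 1.43 to 2.06. Among 4 endothelial markers tested, Flt1 was higher in round spermatids (1.82-fold, though not after normexp correction, 0.04) and well above background on no pachytene array. Kdr and Pecam1 were higher in pachytene spermatocytes, and Tek and Tie1 were well above background on no array. In saline, 0 of the 4 were higher in round spermatids and 1 was higher in pachytene spermatocytes. Of 4 red blood cell markers, Hba-a1 was higher in round spermatids (0.46 ± 0.18) and Alas2 in pachytene spermatocytes (-2.78 ± 0.27). Hba-a1 missed the threshold without the pachytene array of rat 16 labelled 2012 (0.34, adjusted p = 0.0899), without the round spermatid array of rat 14 (0.35, adjusted p = 0.0667) and without that of rat 15 (0.42, adjusted p = 0.0624).

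**Figure D2:**
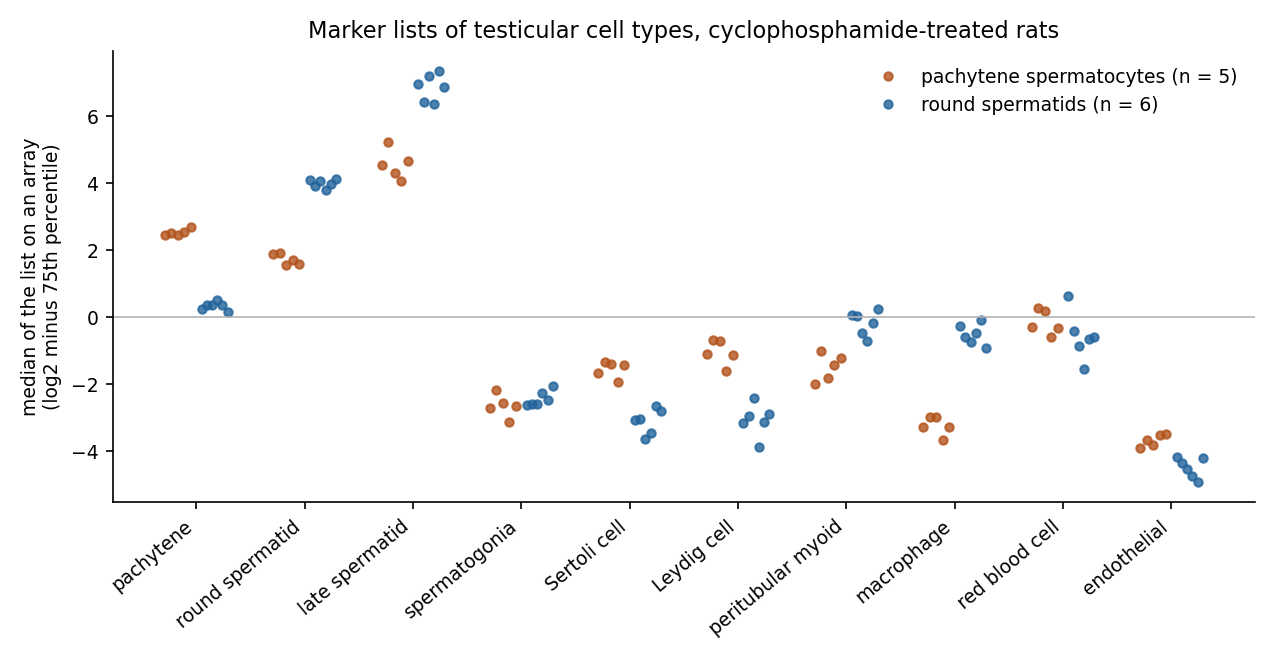
Median level of each marker list on each array (points; y axis, log2 intensity minus the array's 75th percentile) for 5 pachytene and 6 round spermatid arrays. Sertoli and Leydig markers lie higher on all pachytene arrays, and macrophage and myoid markers higher on all round spermatid arrays.

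Promoter sequence was examined because the RNA of so many genes moved together by stage. In RefSeq windows of the 250 bases before the transcription start (GRCr8), the median ratio of observed to expected CpG was 0.43 for 1365 genes over 4-fold higher in round spermatids and 0.74 for 966 genes over 4-fold higher in pachytene spermatocytes. It was 0.71 over the 9206 tested genes with a window and 0.41 over all 27457 windows. The median GC content was 55.2%, 59.6%, 58.8% and 52.0% in the same order. These are descriptions of promoter windows with no test. Of the 4 label genes, H1f6, Piwil1 and Tssk6 had an entry, and Prm2 is named only. They are shown with Gmcl1, Txndc2 and Akap4, genes from the ends of the difference, to show how unlike the windows of one class can be. CpG dinucleotides are in capitals, and each window is read 5′ to 3′ on the strand of the gene. The annotated genes Gmcl1 and Piwil1 reach to positions 120737267 and 33606715, so part of each of these windows lies within the gene.

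H1f6 (chr17:41855961-41856210, minus strand), Gmcl1 (chr4:120737258-120737507, minus strand) and Piwil1 (chr12:33606584-33606833, minus strand) were higher in pachytene spermatocytes and held 7, 21 and 17 CpG, at ratios of 0.39, 0.94 and 0.60.
H1f6: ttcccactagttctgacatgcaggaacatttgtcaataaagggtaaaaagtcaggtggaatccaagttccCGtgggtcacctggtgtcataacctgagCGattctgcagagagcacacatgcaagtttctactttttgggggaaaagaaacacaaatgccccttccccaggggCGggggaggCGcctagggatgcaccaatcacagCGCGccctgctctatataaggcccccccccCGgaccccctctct
Gmcl1: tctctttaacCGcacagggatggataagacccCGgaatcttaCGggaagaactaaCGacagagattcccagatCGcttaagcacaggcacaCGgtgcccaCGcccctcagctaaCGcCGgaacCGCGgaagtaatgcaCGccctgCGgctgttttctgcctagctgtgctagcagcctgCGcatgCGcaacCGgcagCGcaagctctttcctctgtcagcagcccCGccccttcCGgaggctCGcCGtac
Piwil1: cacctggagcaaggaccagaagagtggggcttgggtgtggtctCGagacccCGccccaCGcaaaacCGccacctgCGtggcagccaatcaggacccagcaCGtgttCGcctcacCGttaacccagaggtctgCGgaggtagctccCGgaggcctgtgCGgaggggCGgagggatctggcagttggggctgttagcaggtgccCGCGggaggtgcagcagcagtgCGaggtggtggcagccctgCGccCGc
Tssk6 (chr16:19559919-19560168, minus strand), Txndc2 (chr9:112681967-112682216, minus strand) and Akap4 (chrX:18117550-18117799, minus strand) were higher in round spermatids and held 12, 1 and 2 CpG, at ratios of 0.52, 0.09 and 0.18.
Tssk6: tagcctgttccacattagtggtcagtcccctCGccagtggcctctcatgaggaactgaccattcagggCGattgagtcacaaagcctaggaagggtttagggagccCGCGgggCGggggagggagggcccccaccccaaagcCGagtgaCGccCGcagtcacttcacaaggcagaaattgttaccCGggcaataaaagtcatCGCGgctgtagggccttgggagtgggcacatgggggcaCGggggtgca
Txndc2: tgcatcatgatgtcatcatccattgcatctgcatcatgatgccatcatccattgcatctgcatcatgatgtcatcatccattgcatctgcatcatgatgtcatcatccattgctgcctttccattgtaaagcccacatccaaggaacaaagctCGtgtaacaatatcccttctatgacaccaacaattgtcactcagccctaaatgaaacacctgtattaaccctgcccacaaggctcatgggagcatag
Akap4: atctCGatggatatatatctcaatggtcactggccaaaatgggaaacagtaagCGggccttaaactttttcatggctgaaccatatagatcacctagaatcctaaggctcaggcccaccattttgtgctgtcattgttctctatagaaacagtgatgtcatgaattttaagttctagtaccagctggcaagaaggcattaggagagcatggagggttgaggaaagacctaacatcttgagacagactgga

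The windows of Txndc2 and Akap4 had the lowest ratios of the 6, and that of H1f6 was lower than that of Tssk6, so the order of single genes does not follow the class medians throughout. The cyclic AMP response element TGACGTCA, searched on both strands, occurred in 2.86% of windows of the round spermatid class, 2.59% of the pachytene class, 2.91% of tested genes and 1.7% of all windows. The sequence GTTGCC, bound by regulatory factor X proteins, occurred in 12%, 10.5%, 11.1% and 9.9%, and the MYB motif AACNGNCA in 8.5%, 9.21%, 8.36% and 9.48%. Neither class stood far from the tested genes in any of the 3 motifs. Of the printed windows, those of Gmcl1 and Piwil1 hold the MYB motif, and none of the 6 holds either of the other motifs.

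The transcription factors of the switch between the stages were split. Of 17 tested, 9 were higher in round spermatids and 5 in pachytene spermatocytes (median 0.72, or 0.44 with the mean of all probes of a gene). Pou5f2, a POU-domain factor of spermatocytes, fell from 1.43, 1.46, 1.69, 1.98 and 2.20 on the pachytene arrays to between -5.17 and -3.25 on the round spermatid arrays (65.4-fold; -6.03 ± 0.31, adjusted p = 1.08e-09). Ovol1, a zinc finger repressor that acts at pachytene, was also higher in pachytene spermatocytes (-2.70 ± 0.21), while another of its probes did not pass (-0.22 ± 0.20). On the spermatid side, Fhl5, the coactivator of CREM in the testis, rose from -0.42, -0.04, 0.04, 0.17 and 0.54 to between 2.88 and 3.46 (8.72-fold; 3.12 ± 0.16). Crem itself, the activator of postmeiotic genes, was split between probes: the brightest gave 1.21 ± 0.11 and the others 0.39 ± 0.09 and -2.18 ± 0.15. The paralogous TFIID subunits Taf7 and Taf7l moved in opposite directions: Taf7, on an autosome, by -1.79 ± 0.21 and Taf7l, on the X chromosome, by 2.31 ± 0.14. Tbp, their partner, did not pass (-0.02 ± 0.13).

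Among chromatin genes, several testis histones were higher in pachytene spermatocytes, and protamine and transition protein genes were higher in round spermatids. Of 31 tested, 13 were higher in round spermatids and 17 in pachytene spermatocytes, 7 and 13 of them by over 2-fold. On the pachytene side stood the testis histones H1f6, H2bc1 and H2ac1. H2bc1, which encodes the testis-specific H2B, lay at 1.31, 1.38, 1.43, 1.70 and 2.38 against -3.91 to -2.66 (27.9-fold; -4.80 ± 0.26). H2ac1, its H2A partner, differed by -2.47 ± 0.25, and the macroH2A genes Macroh2a1 and Macroh2a2, whose proteins coat the sex body, by -3.0 ± 0.11 and -2.09 ± 0.12. H2ax, Rnf8 and Rnf168, which act in the DNA damage signal on the unsynapsed sex chromosomes, differed by -2.29 ± 0.13, -2.25 ± 0.10 and -2.14 ± 0.18. The chaperone Asf1a was well above background on no round spermatid array and at least 4.03-fold higher in pachytene spermatocytes.

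On the round spermatid side stood the genes of nuclear compaction. H1f7, the spermatid linker histone, rose from 1.08, 1.39, 1.5, 1.51 and 1.86 to between 3.94 and 4.67 (7.32-fold; 2.87 ± 0.16). Prm3 (2.29 ± 0.22), Prm1 (1.91 ± 0.24), Tnp2 (1.58 ± 0.20) and Tnp1 (1.28 ± 0.21), for protamines and transition proteins, were higher with it. The pachytene array of rat 15 had the highest median of late spermatid markers within its group (5.22 against 4.08 to 4.66 on the other pachytene arrays). On every array this median was the level of a single member, Prm3. Without the pachytene array of rat 15 the median difference of that list was 2.08 in place of 1.91.

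The piRNA pathway silences transposons and acts on messenger RNA through small RNAs bound to PIWI proteins. Of its 17 members tested, 12 were higher in pachytene spermatocytes and 2 in round spermatids (median -1.52). Tdrd5, a Tudor protein needed for piRNA processing, lay at 2.03, 2.32, 2.38, 2.39 and 2.62 against -2.42 to -2.02 (24.3-fold; -4.61 ± 0.12). Piwil2 (-3.41 ± 0.13), Rnf17 (-2.51 ± 0.21, well above background on 3 round spermatid arrays), Fkbp6 (-2.45 ± 0.16) and Gpat2 (-2.12 ± 0.18) were higher in pachytene spermatocytes with it. The 2 exceptions were Gtsf1 (1.14 ± 0.14), a zinc finger partner of PIWI proteins, and Ddx4 (0.52 ± 0.12), the germ cell helicase VASA. Mael, Tdrd6 and Tdrd7 did not pass (0.19, -0.15 and 0.13).

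The machinery of synapsis and recombination was higher in pachytene spermatocytes in most members, but not in all parts. Of 24 genes of the synaptonemal complex, the chromosome axis and cohesin, 15 were higher in pachytene spermatocytes and 6 in round spermatids (median -0.85). The lateral element genes Sycp3 (-2.18 ± 0.14) and Sycp2 (-1.98 ± 0.12), the axis protein gene Hormad1 (-1.93 ± 0.13) and the transverse filament gene Sycp1 (-0.85 ± 0.12) fell. The cohesin subunits Rec8 (2.58 ± 0.13), Smc3 (2.26 ± 0.13) and Smc1a (2.23 ± 0.14) and the nuclear envelope gene Sun1 (2.42 ± 0.14) rose. Rec8, the meiotic kleisin, stood at 2.55, 2.67, 2.72, 2.85 and 3.13 on pachytene arrays and between 5.07 and 5.55 on round spermatid arrays, with no overlap. Stag3, the other meiosis-specific cohesin subunit named here, did not pass (-0.21 ± 0.10). For Terb2 the probes disagreed (-2.39 ± 0.16 and 1.12 ± 0.22).

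Of 27 recombination genes, 16 were higher in pachytene spermatocytes and 9 in round spermatids (median -0.93). Mlh3, which acts in the resolution of crossovers, lay at 1.28, 1.53, 1.73, 1.75 and 1.81 against -2.09 to -1.67 (11.2-fold; -3.49 ± 0.13). Ccnb1ip1 (-3.15 ± 0.16), the crossover regulator HEI10, fell with it. Dmc1, the meiotic strand exchange protein, was higher in round spermatids (1.17 ± 0.14, well above background on 2 pachytene arrays), as were Tex15 (2.55 ± 0.15), Rad54b (2.40 ± 0.19) and Brca1 (2.39 ± 0.24). Brca1 was dim, at -5.84, -5.40, -5.00, -4.70 and -4.34 against -3.10 to -2.29. Spidr, a scaffold protein of recombination, was outside the lists and stood among the 15 largest differences (28.4-fold higher in pachytene spermatocytes; -4.83 ± 0.15).

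Genes that drive and restrain the meiotic divisions were split, with 19 of 38 tested higher in pachytene spermatocytes and 14 in round spermatids (median -0.37). Fbxo43, the inhibitor of the anaphase promoting complex also called EMI2, had levels of 1.77, 2.27, 2.32, 2.32 and 2.38 on pachytene arrays and -3.64 to -3.16 on round spermatid arrays (47.5-fold; -5.57 ± 0.14). Pbk, a mitotic kinase (-5.03 ± 0.33), Cks2, the subunit that docks cyclin-dependent kinases (-4.61 ± 0.13), Cdk2 (-3.99 ± 0.17) and Cdc20 (-3.61 ± 0.16) followed it. Cyclins did not move together: Ccne2 (-3.28 ± 0.17) was higher in pachytene spermatocytes, and Ccnb1 (1.72 ± 0.14), Ccna1 (1.38 ± 0.14) and Ccnb2 (0.98 ± 0.16) were higher in round spermatids. Cdk1, the partner of B cyclins, differed by -1.50 ± 0.25. Gmcl1, a nuclear envelope protein of germ cells, is not on this list and was also far higher in pachytene spermatocytes (2.33, 2.44, 2.57, 2.58 and 2.79 against -4.10 to -2.86; 64.8-fold). Another probe of Gmcl1 gave a far smaller difference (-0.57 ± 0.11).

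Among genes well above background on all 11 arrays, chosen without overlap between the groups, the remaining ones of the 15 largest differences towards pachytene spermatocytes were Acsl3, which activates long-chain fatty acids (31.1-fold), Ccp110, a centriole cap protein (24.4-fold), Psma8, the proteasome subunit of the spermatocyte (23.6-fold), Dr1, a repressor of TATA-binding protein (22.7-fold), B3galnt1 (21.1-fold) and Bloc1s4 (20.9-fold). Another probe of Ccp110 gave -2.07 ± 0.15. Among genes well above background on no round spermatid array, the largest bounds were at least 9.55-fold for Zfp949, 9.03-fold for Vkorc1l1, 7.59-fold for Agtr1b, 6.97-fold for Il23a and 6.82-fold for Slc34a2.

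Most acrosome genes were higher in round spermatids. Of 31 genes of the acrosome and egg binding, 23 were higher in round spermatids and 2 in pachytene spermatocytes (median 1.5), and 20 of the 23 by over 2-fold. Acrv1, an acrosomal matrix protein, lay at -0.19, -0.18, -0.02, 0.21 and 0.43 against 3.0 to 3.34 (8.40-fold; 3.07 ± 0.13). Tmem95 (3.20 ± 0.18) and Izumo1 (2.62 ± 0.17), membrane proteins needed for fusion with the egg, Sppl2c (2.96 ± 0.22), a signal peptide peptidase of spermatids, and the testis chaperones Calr3 (2.88 ± 0.19) and Pdilt (2.69 ± 0.19) were higher with it. The 2 that were higher in pachytene spermatocytes were Adam2 (-0.50 ± 0.14) and Clgn (-0.47 ± 0.15), the chaperone calmegin. Both calls were lost when only the slides that hold both cell types were used (adjusted p = 0.223 and 0.162).

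The sheath of the tail followed the acrosome. Of 25 genes of the fibrous sheath, outer dense fibres and mitochondrial sheath, 19 were higher in round spermatids and 1, Cntln, in pachytene spermatocytes (median 1.66). Akap4, the main protein of the fibrous sheath, stood at 0.31, 0.57, 0.78, 1.08 and 1.59 against 3.80 to 4.60 (10.2-fold; 3.34 ± 0.22). Cimap1a (3.18 ± 0.14), Spag4 (3.03 ± 0.13), Spata19 (2.96 ± 0.14) and Odf1 (2.79 ± 0.16), the major outer dense fibre protein, were higher with it. The axoneme did not share this direction. Of its 39 genes for dyneins, intraflagellar transport and axonemal structure, 12 were higher in round spermatids and 15 in pachytene spermatocytes (median -0.08), both below the background shares of 39.7% and 41.0%. The sign of this median turned with slide as a fixed block and on the slides with both cell types. Ccdc40 (-1.68 ± 0.14), an axonemal ruler protein, and Ift20 (-1.53 ± 0.14) fell, and the tektins Tekt2 (1.5 ± 0.11) and Tekt3 (1.15 ± 0.09) rose.

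Energy genes divided between glycolysis and respiration. Of 21 glycolysis genes, 12 were higher in round spermatids and 4 in pachytene spermatocytes (median 1.09). Gapdhs, the sperm glyceraldehyde phosphate dehydrogenase, stood at 0.96, 1.11, 1.23, 1.35 and 1.92 on pachytene arrays against 4.35 to 4.88 on round spermatid arrays (9.77-fold; 3.29 ± 0.17), while Gapdh did not pass (-0.20 ± 0.12). Aldoart2 (2.56 ± 0.12), Gpi (2.34 ± 0.18) and Pkm (2.26 ± 0.17) were higher with Gapdhs, and Eno3 (-2.51 ± 0.11) and Pfkp (-0.81 ± 0.11) were higher in pachytene spermatocytes. Ldhc, the testis lactate dehydrogenase, did not pass (-0.34 ± 0.15). The transporters differed too: Slc2a3, a glucose transporter, by -3.04 ± 0.20 and Slc16a7, a lactate transporter, by 2.83 ± 0.16.

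Of 73 oxidative phosphorylation genes, 60 were higher in pachytene spermatocytes and 4 in round spermatids (median -0.63). The list median was 3.75 to 4.03 on pachytene arrays and 2.66 to 3.01 on round spermatid arrays. Ndufb3 (-2.88 ± 0.13), of complex I, and Atp5mc1 (-2.66 ± 0.13) and Atp5f1c (-2.31 ± 0.11), of the ATP synthase, differed most towards pachytene spermatocytes. The 4 that went the other way were Cox6a2 (2.77 ± 0.16), Ndufb11 (1.25 ± 0.17), which is X-linked, Ndufa5 (1.25 ± 0.17) and Ndufa12 (0.27).

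Ribosomal protein genes and proteasome genes had the same lean. Of 75 cytosolic ribosomal protein genes, 60 were higher in pachytene spermatocytes and 2, among them Rpl36a (0.54 ± 0.14, with another probe at 0.37 ± 0.17 that did not pass), in round spermatids (median -0.60). Rpl19 (-3.09 ± 0.21), Rpsa (-2.30 ± 0.17) and Rpl35 (-2.16 ± 0.13) differed most towards them, and 17 of the 60 by over 2-fold. Ribosomal protein genes have many near-identical processed copies, so their probes may read several loci. Of 46 proteasome genes, 33 were higher in pachytene spermatocytes and 6 in round spermatids (median -0.68). Psma8, the germ cell subunit, stood at 4.46, 4.46, 4.55, 4.67 and 4.74 against -0.68 to 0.56 (-4.56 ± 0.21), and its somatic counterpart Psma7 differed by -0.78 ± 0.18. Psmd10 (2.80 ± 0.12), on the X chromosome, and Adrm1 (1.92 ± 0.15), a ubiquitin receptor, went the other way.

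Regulators of translation were mixed, with 10 of 28 higher in round spermatids and 11 in pachytene spermatocytes (median -0.10). Eif4a2, an initiation helicase (-3.95 ± 0.12), Ddx6, a helicase of RNA granules (-2.51 ± 0.17), and Pum2 (-2.02 ± 0.10) fell. Tent5d (2.70 ± 0.14) and Tent5c (2.64 ± 0.14), poly(A) polymerases, and Fmr1 (2.5 ± 0.17, well above background on 2 pachytene arrays) rose. Eif4e, the cap-binding protein, gave 2.37 ± 0.14 with its brightest probe and -2.77 ± 0.10 with another.

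**Figure D3:**
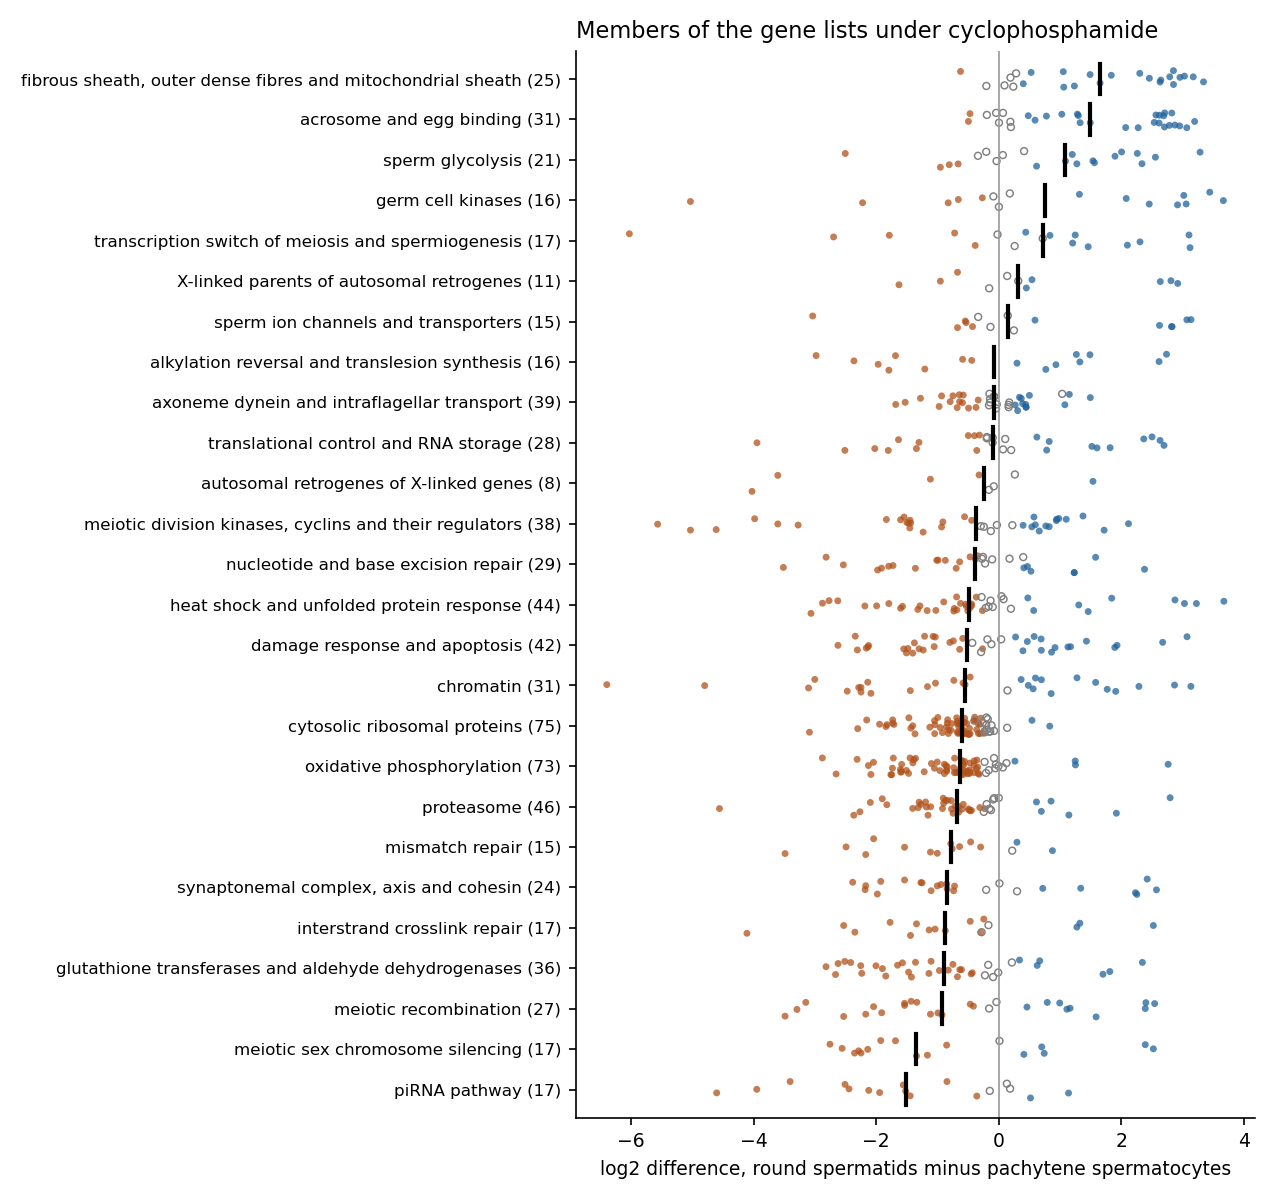
Log2 difference of every tested member of 26 gene lists (points; x axis, round spermatids minus pachytene spermatocytes; number tested in brackets). Blue and orange points passed in either direction, open points did not, and black bars are medians, which run from -1.52 for the piRNA pathway to 1.66 for the fibrous sheath and related structures.

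Genes on the X chromosome, which is silenced in pachytene spermatocytes and partly reactivated afterwards, leaned to round spermatids. Of 332 X-linked genes tested, 196 (59.0%) were higher in round spermatids and 94 (28.3%) in pachytene spermatocytes, and the median difference was 0.92. The median was 0.39 after normexp correction and 0.37 with no filter on dim probes. Among 10859 autosomal genes the shares were 39.0% and 43.3% and the median was -0.07. Over 4-fold differences towards round spermatids made up 34.6% of X-linked and 14.6% of autosomal genes, while those towards pachytene spermatocytes made up 10.8% and 10.5%. The median level of X-linked genes was -3.16 to -2.64 on pachytene arrays and -2.41 to -2.13 on round spermatid arrays, which did not overlap. The medians of single autosomes lay between -0.33 (chromosome 19) and 0.18 (chromosome 11).

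The X-linked genes with the largest differences towards round spermatids included Arhgef6, a guanine nucleotide exchange factor (-3.46, -2.67, -2.67, -2.49 and -2.13 against 0.46 to 1.42; 12.2-fold), Saxol1 (log2 difference 3.42) and Snx12, a sorting nexin (10.6-fold). Fancd2osl2 and Gpr34 were well above background on no pachytene array and at least 8.12-fold and 3.43-fold higher. Gpr34 is also a known receptor of macrophages, whose markers were higher on the round spermatid arrays (above). Towards pachytene spermatocytes the X-linked genes were Slc25a53 (at least 6.21-fold), Igsf1 (13.3-fold), Gpm6b (10.2-fold, well above background on 2 round spermatid arrays), Dcaf12l1 (9.05-fold) and Mageb16 (8.82-fold, on 3 round spermatid arrays). Igsf1, Gpm6b, Dcaf12l1 and Mageb16 were lowest of the pachytene arrays on that of rat 16 labelled 2012, and Slc25a53 on that of rat 29 (-3.91). The Sertoli cell list was also lowest on the array of rat 16 labelled 2012 (-1.93 against -1.65 to -1.34). So were the median of all X-linked genes (-3.16) and, of the genes higher in round spermatids, Arhgef6, Snx12, Fancd2osl2 and Gpr34, but not Saxol1. The part of Sertoli cells in these levels was not tested.

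Autosomal retrogenes that stand in for silenced X-linked parents did not share a direction. Of 8 tested, 4 were higher in pachytene spermatocytes and 1 in round spermatids. Of 11 X-linked parents, 5 were higher in round spermatids and 3 in pachytene spermatocytes. Eif1a lay at 0.07, 0.36, 0.42, 0.47 and 0.53 against -4.07 to -3.17 (-4.03 ± 0.17), while its X-linked counterpart Eif1ax lay at -1.08, -0.65, -0.53, -0.53 and -0.51 against 1.82 to 2.43 (2.81 ± 0.15). These probes moved without overlap and in opposite directions, while another probe of Eif1ax did not pass (0.24 ± 0.23). The pair Pgk2 and Pgk1 had the reverse arrangement, with the autosomal Pgk2 at 1.54 ± 0.11 and the X-linked Pgk1 at -0.95 ± 0.17. Cstf2t (-3.61 ± 0.12) and its parent Cstf2 (-1.63 ± 0.17) fell together. Tktl1 (2.92 ± 0.14) and Utp14a (2.64 ± 0.12) were the other parents that rose by over 2-fold. Of 17 genes of sex chromosome silencing, 11 were higher in pachytene spermatocytes and 5 in round spermatids (median -1.34), and the former included the checkpoint clamp genes Rad1 (-2.56 ± 0.16) and Hus1 (-2.35 ± 0.14). Another probe of Hus1 did not pass (-0.26 ± 0.20).

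The DNA repair lists were drawn up because the drug damages DNA; repair capacity is known to fall as spermatids mature. Of 17 interstrand crosslink repair genes, 12 were higher in pachytene spermatocytes and 3 in round spermatids (median -0.87, or -0.47 over members well above background on all arrays). Ube2t, the ubiquitin-conjugating enzyme of the Fanconi pathway, lay at 2.68, 2.73, 2.79, 2.89 and 2.96 against -1.80 to -0.74 (17.3-fold; -4.11 ± 0.20), and its target Fancd2 differed by -1.34 ± 0.15. The 3 higher in round spermatids were Fancb (2.53 ± 0.11), which is X-linked, Mad2l2 (1.33 ± 0.19) and Fan1 (1.28 ± 0.18).

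Of 29 genes of nucleotide and base excision repair, 16 were higher in pachytene spermatocytes and 7 in round spermatids (median -0.38). Parp2 (-3.52 ± 0.12), Ogg1, the 8-oxoguanine glycosylase (-2.54 ± 0.11), and Parp1 (-1.98 ± 0.12) fell, while the end-processing gene Aptx (2.38 ± 0.15) and the scaffold gene Xrcc1 (1.23 ± 0.14) rose. Gtf2h4, a TFIIH subunit (-2.82 ± 0.49), had 1 round spermatid array at 2.71, inside the pachytene range. Of 15 mismatch repair genes, 12 were higher in pachytene spermatocytes and 2 in round spermatids (median -0.78). Of 16 genes of alkylation reversal and translesion synthesis, 8 were higher in each cell type. Mgmt, which removes alkyl groups from guanine, was higher in round spermatids (0.93 ± 0.17), and the bypass polymerases Polk (2.74 ± 0.12) and Polh (-2.98 ± 0.23) moved in opposite directions. The other probe of Polk gave -0.74 ± 0.11, and that of Alkbh4 (-1.97 ± 0.23) gave 0.09 ± 0.15. The ubiquitin-conjugating pair that acts with Rad18 split as well, with the X-linked Ube2a at 2.62 ± 0.12 (another probe 1.22 ± 0.13) and the autosomal Ube2b at -1.69 ± 0.12.

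Of 42 genes of the damage response and apoptosis, 22 were higher in pachytene spermatocytes and 15 in round spermatids (median -0.51). Bcl2l11, the death activator BIM, rose from -5.04, -4.84, -4.66, -4.22 and -3.86 to between -1.91 and -1.07 (8.43-fold; 3.08 ± 0.22), and Bcl2l14 (2.68 ± 0.12) and Pmaip1, or NOXA (1.93 ± 0.23, well above background on 1 pachytene array), rose with it. Zmat3 (-2.63 ± 0.11), Htra2 (-2.34 ± 0.10) and Bok (-2.31 ± 0.23) fell, although another probe of Zmat3 gave 0.94 ± 0.12. Cdkn1a did not pass (0.04 ± 0.13), although another of its probes gave -2.07 ± 0.17.

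Genes of drug metabolism were higher in pachytene arrays in most members. Of 36 glutathione transferase and aldehyde dehydrogenase genes, whose products conjugate or oxidise cyclophosphamide metabolites, 25 were higher in pachytene spermatocytes and 6 in round spermatids (median -0.90). Gstt2 (-2.82 ± 0.25), Gstm6 (-2.67 ± 0.25) and Aldh1a1 (-2.62 ± 0.19) differed most towards pachytene spermatocytes, and Aldh1a3 (2.35 ± 0.21) and Aldh3b1 (1.81 ± 0.25) went the other way. Sertoli and Leydig cell markers were higher on the same arrays, with the summed levels given above. Of the pachytene arrays, that of rat 16 labelled 2012 was the lowest in Sertoli and Leydig markers. Gstm6 ran from 0.68 on this array to 2.01 on that of rat 15, and Aldh1a1 from 0.56 on the former to 1.62. Gstt2 ran the other way, from 0.46 on the array of rat 15 to 0.97 on that of rat 16 labelled 2012. The part of somatic cells in this group was not tested.

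Of 44 heat shock and unfolded protein response genes, 27 were higher in pachytene spermatocytes and 9 in round spermatids (median -0.49). Syvn1 (-3.07 ± 0.14), Dnajb9 (-2.88 ± 0.11) and Dnajc3 (-2.77 ± 0.11), which act in folding or disposal at the endoplasmic reticulum, fell. Hspa1l, the testis member of the HSP70 family, stood at 0.58, 0.67, 0.99, 1.03 and 1.80 against 4.35 to 4.97 (12.8-fold; 3.68 ± 0.21), and Dnajb8 (3.23 ± 0.19) and Dnajc5b (3.03 ± 0.15) rose with it. Of 16 kinase genes of the germ line, 8 were higher in round spermatids, with Prkar2a, a regulatory subunit of protein kinase A, at 3.67 ± 0.22, and 5 in pachytene spermatocytes, with Pbk at -5.03 ± 0.33. Of 15 ion channels and transporters of sperm, 6 were higher in round spermatids, among them Lrrc52 (3.14 ± 0.12), a potassium channel subunit, and Atp1a4 (3.07 ± 0.14), the sperm sodium pump, and 5 in pachytene spermatocytes.

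Towards round spermatids, the 15 largest differences were taken among genes well above background on all 11 arrays whose groups did not overlap. Fhdc1, a formin, lay at -4.31, -4.11, -3.89, -3.66 and -2.88 against -0.12 to 0.78 (18.8-fold; 4.23 ± 0.24). Txndc2, a sperm thioredoxin, lay at -2.36, -1.94, -1.91, -1.78 and -1.13 against 1.5 to 2.33 (13.8-fold). Atosb (15.6-fold), Tmem269 (15.1-fold), Phospho1 (14.2-fold), Cuzd1 (13.5-fold), B3gnt5 (13.5-fold), Plekhh2 (13.4-fold), Fscn3, an actin bundling protein of the sperm head (13.1-fold), Tescl and Spata32 (13.0-fold each), Mlph (12.9-fold) and Hspa1l followed. Snap91 (20.3-fold) and Cd74 (17.3-fold) had the largest SE, 0.67 and 0.47. Snap91, a clathrin adaptor, stood at -5.34, -5.05, -4.79, -4.10 and -1.86 on the pachytene arrays, so 1 pachytene array came close to the lowest round spermatid level of -1.69 while the other 4 lay far below. Among genes well above background on no pachytene array, the largest bounds were at least 12.2-fold for Slpi, 9.80-fold for Fam220a, 9.38-fold for Nos1, 8.98-fold for Bmpr1b and 8.73-fold for Kcnip3.

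In saline rats the same cell types differed in the same direction. There 72.7% of 19422 tested genes passed. Of the 19110 genes tested in both treatments, 13504 passed in both in the same direction, 87.5% of the cyclophosphamide calls and 96.9% of the saline calls, and 0 passed in opposite directions. No array is shared between the comparisons, but their slide layout is alike. In saline too, the pachytene arrays of rats 16, 26 and 28 lay on slides without round spermatids and were scanned on another day. The agreement between treatments therefore does not test for an effect of slide or scan day. The 30 genes with the largest differences under cyclophosphamide all passed in saline in the same direction, and H1f6 differed by -6.40 under cyclophosphamide and -6.22 in saline, Piwil1 by -3.95 and -4.34, Tssk6 by 3.45 and 2.74 and Prm2 by 3.14 and 2.54.

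The difference was larger under cyclophosphamide in 11227 of the 13504 genes (83.1%), with a median absolute difference of 1.52 against 1.32. The test of the difference between treatments, an interaction of cell type and treatment in limma, passed for 0.0% (0 of 19664 genes), while 1504 had an unadjusted p under 0.05 and the smallest adjusted p was 0.0586. With slide as a block 0 passed and 1954 had an unadjusted p under 0.05. So no single gene was shown to differ between the treatments, with a median SE of the interaction of 0.244. The counts of 1504 and 1954 are each above the share of 0.05 of the genes that falls there on average where none differs. The list medians were not larger throughout: round spermatid markers 2.92 under cyclophosphamide and 2.42 in saline, late spermatid markers 1.91 and 1.55, ribosomal proteins -0.60 and -0.45, proteasome -0.68 and -0.48, crosslink repair -0.87 and -0.85, X-linked genes 0.92 and 0.92, and acrosome genes 1.5 and 1.82. The summed level of round spermatid markers on pachytene arrays was 86.9 to 113 under cyclophosphamide and 99.4 to 139 in saline, and on round spermatid arrays 376 to 514 and 373 to 495. The part of such marker levels in the larger differences was not tested.

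**Figure D4:**
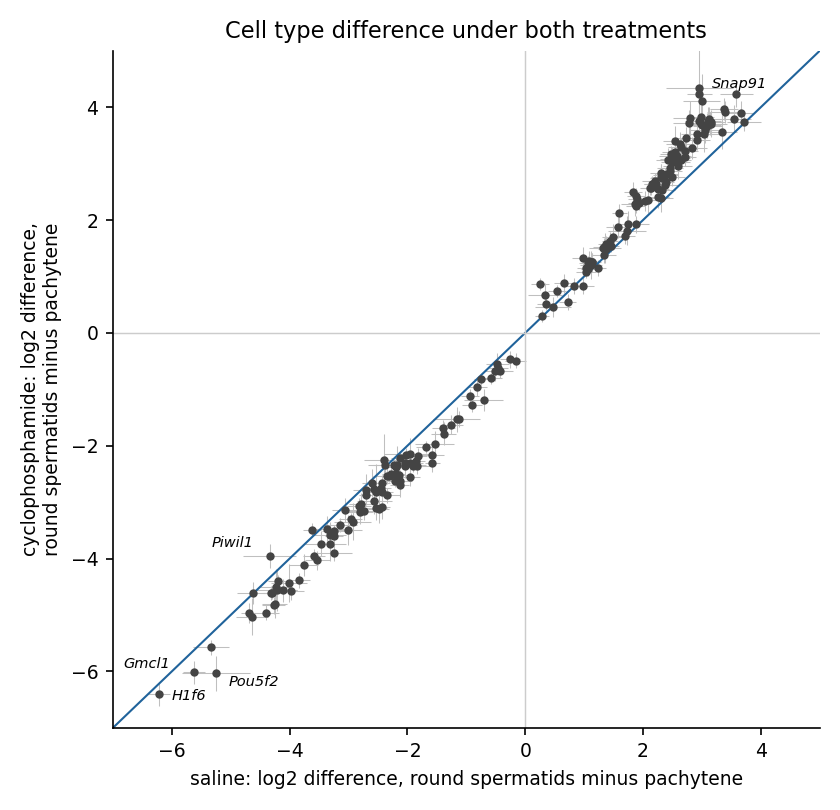
Log2 difference between cell types (round spermatids minus pachytene spermatocytes) under saline (x axis) and cyclophosphamide (y axis) for 206 named genes, with standard errors and the line of equality. All 206 have the same direction in both, and 197 lie farther from 0 under cyclophosphamide; the genes were chosen on the cyclophosphamide difference.

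**Figure D5:**
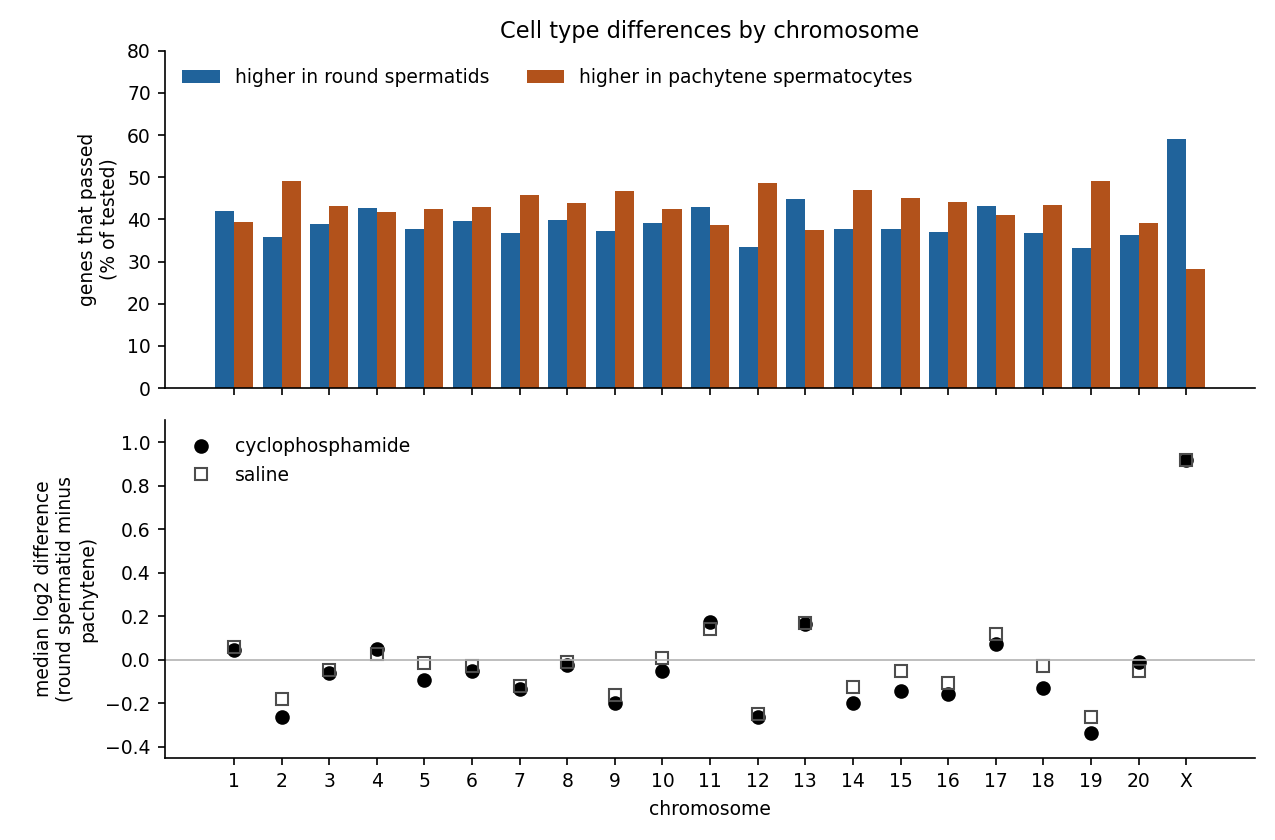
Upper plot, share of tested genes on each chromosome that passed in either direction under cyclophosphamide (y axis, %); lower plot, median log2 difference under cyclophosphamide and saline. The X chromosome has a median of 0.92 in both treatments, above all 20 autosomes.

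The arrays carried limits that touch these results. The 75th percentile of intensity ran from 1069.5 to 2331.6 and the share of probes well above background from 65.3% to 76.4%. Of the 5 pachytene arrays, 3 lay on slides that held pachytene spermatocytes alone among the cyclophosphamide arrays and were scanned on another day. On the slides with both cell types alone, 14478 genes passed and 13974 of them had passed in the same direction in the full comparison. These slides held only the pachytene arrays of rats 15 and 29, with all 6 round spermatid arrays. All of them are part of the full comparison, so the 2 counts are not independent. The number of arrays, 5 and 6, limits the precision.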

How the data were processed

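RNA of 22 samples was labelled with Cy3 and hybridised to 1-colour Agilent rat arrays. The authors deposited scanner files whose processed signal is an intensity that Feature Extraction had background-subtracted and detrended but not scaled between arrays. Feature Extraction is version 11.5.1.1 per the submitters' processing notes and 10.7.3.1 per the file headers; the array design refers to the rat build rn4 per the file headers. The deposited value table was not used.

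After control and outlier spots had been removed, replicate spots were averaged per probe, and the log2 of the intensity was set relative to the array's 75th percentile. Accessions named 17998 of 30367 probes (59.3%) through the RefSeq table of GRCr8. The brightest probe stood for a gene. Testing required a signal well above background (over 0.5 of the spots of the probe) on all arrays of at least 1 cell type, with at most 1 array excepted. Fits used limma 3.58.1 (lmFit, eBayes, two-sided, Benjamini-Hochberg) with statmod 1.5.0 in R 4.3.3. The fit was also run on simulated arrays with independent noise and few changed genes. These held no effect of slide or of a shared animal, so they cannot test the calls for such effects. Tables were made with pandas 2.3.3 and numpy 2.4.6 under Python 3.11.15, and figures with matplotlib 3.10.9. For a bound ("at least"), dim levels under the lowest signal well above background on their array were raised to that signal. The bright group's mean was then set against their mean. Where no dim level lay under that signal, as for Flt1, the bound equals the measured difference. The files hold no mean signal, so normexp was run on the median signal of the spot and of its background, with an offset of 50.

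Named genes were the 4 label genes, the 15 largest differences in each direction that were measured on all arrays without overlap, the 5 largest bounds in each direction, up to 3 members of each list in each direction, and the 5 largest X-linked differences in each direction; other list members, such as Stag3, Gapdh or Cdk1, were named after their values were seen, to describe a list. The members and lists were chosen with earlier results of these data known. CpG content was added after the data were seen. Some genes of the lists are not reported here by name.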

Additional observations from a re-analysis of the deposited data

Results flagged for a closer look

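Within each cell type, the highest or lowest of the 5 or 6 arrays was compared with the others, as the gap to its neighbour over the whole range, for the levels of 33 genes, the medians of 36 lists and 2 measures of array quality. Of 142 groups looked at, 5 had an array that stood apart beyond the critical ratio of 0.71 for 5 arrays or 0.625 for 6; chance alone gives about 1 in 20.

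The pachytene array of rat 15 was lowest for Fbxo43 (1.77, the next array 2.27) and highest for Phospho1 (-3.43, the next -4.22). Both values lie towards those of the round spermatid arrays, and this array also had the highest median of late spermatid markers in its group. The round spermatid array of rat 14 was lowest for B3galnt1 (-3.20, the next -2.82). The median of the X-linked parents of retrogenes was lowest on the pachytene array of rat 16 labelled 2012 (-1.08, the next -0.65). The median of the glutathione transferases and aldehyde dehydrogenases was lowest on the round spermatid array of rat 25 (-1.63, the next -1.20).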

How the results depend on the processing

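The count of genes that passed (15630) lay between 12354 (slide 2 alone) and 16867 (no filter on dim probes) over the settings that keep the threshold, and from 15329 to 15839 when 1 array was left out at a time. Asking for over 2-fold left 9946 genes, and limma treat against 2-fold left 7642. X-linked genes higher in pachytene spermatocytes numbered 94, and 62 on slide 2 alone, where a lone pachytene array is assumed to vary like the round spermatid arrays; slide 1 alone gave 84. With the rat number as a replicate block, 15607, 15526 or 15682 genes passed, depending on which array of rat 16 was joined; the labels do not say that a number is 1 animal. Deviations from the group means correlated at -0.02 for the arrays of rat 15 and at 0.152 and 0.132 for those of rat 16, while arrays of different rats reached 0.217. The block changed no call of the 206 named genes.

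Scaling over detected probes shifted the median difference of all genes from -0.02 to -0.18 and quantile normalization to -0.10. The medians of 14 of the 36 lists moved by over 1.5 times under some setting, the Sertoli list to -1.43 after normexp and the chromatin list to -0.35 on slide 1 alone among them. The medians of the axoneme and of the ion channel lists changed sign under some settings (-0.24 to 0.07 and -0.05 to 0.46), and the red blood cell, retrogene and alkylation repair lists also changed sign under 5, 1 and 2 settings. Of the 206 named genes, 1 reversed: Kitlg, at -0.57 for the mean of its probes. Calls were lost for 5 of them with slide as a fixed block and on the slides with both cell types, for 13 on slide 1 alone, for 15 on slide 2 alone, and for at most 2 under any other setting. Of 1362 other probes that passed for genes that passed, 1127 (82.7%) had the same direction and 235 the opposite one. Flt1 did not pass after normexp correction (0.04), nor Wt1 for the mean of its probes (0.13), nor Pcna (0.09) and Hba-a1 (0.32) after quantile normalization. Genes well above background on no array of a cell type have only bounds, and for Flt1 the bound equals the measured difference. The differences of genes above background on some arrays rest partly on signals near background.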
